A study of Homo sapiens with 4 samples.

Results

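The collagen genes of a human embryonal carcinoma line were followed through inhibition of the mitotic kinase Aurora B. All protein-coding genes whose current symbol reads COL, a number, A and a number were taken, which gave 44 genes of 27685 gene IDs in the deposited tables, each of them on a single row of the tables. The genes were chosen by name and not by value, with earlier results of these data known. The cells were NCC-IT-A3, a line labelled as embryonal carcinoma, the stem-cell-like form of germ cell tumour. RNA-seq was run on 2 libraries from cells given 100 nM barasertib, an inhibitor of Aurora B, for 4 days, and on 2 libraries from cells given DMSO, its solvent, for 4 days. All cells were grown in serum-containing medium, and the labels give no further allele or agent. They do not say that replicates were separate cultures, so each p-value is set against a spread between libraries that may be technical.

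Collagens are secreted proteins whose chains wind around each other into a triple helix. Fibrillar collagens assemble into the cross-linked fibrils of connective tissue. Basement membrane collagens, mainly type IV, form a sheet-like network under epithelia together with laminin and nidogen, and this is the first matrix laid down in the early embryo. The remaining collagens decorate fibrils (the FACIT group), form beaded filaments, anchor epithelia or stay in the cell membrane. Chains are hydroxylated and folded in the endoplasmic reticulum, exported in large carriers, then cleaved and cross-linked outside the cell.

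The files give levels per gene in TPM, a transcript abundance that accounts for gene length and sums to 1000000 in every library. Of the 44 collagen genes, 41 were above 0 in at least 1 library and 24 averaged 1 TPM or more across the libraries, the level from which genes were tested. Mean read depth over the tested collagens, as the deposited coverage, lay between 0.813 (COL17A1 in DMSO replicate 1) and 204.9 (COL6A2 in barasertib replicate 1). Over all 13938 tested genes, log2 levels correlated at 0.992 to 0.993 within a group and at 0.979 to 0.981 between groups. All 10 embryonal carcinoma markers examined were expressed, with summed levels of 6470.4 to 6545.4 TPM in barasertib libraries and 5875.6 to 5943.1 TPM in DMSO libraries, led by POU5F1.

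With barasertib, 11 of the 24 tested collagens rose and 1 fell, while 12 did not pass the test (limma on log2(TPM + 1), Benjamini-Hochberg adjusted p under 0.05 over all tested genes). Together 29.5% of all tested genes passed in either direction. The 11 made up 45.8% of the tested collagens, where 22.0% of all tested genes rose, and 7.44% of all tested genes fell. COL5A2, a fibril-regulating chain, had the largest rise among them, and COL18A1, the most abundant collagen of the line, rose by 0.52 on the log2 scale. COL14A1, a fibril-associated collagen, was the gene that fell. The median log2 change over the tested collagens was 0.32, and over all tested genes it was 0.11. In RNA from whole cultures, a change in the number of cells of a type and a change in RNA per cell cannot be told apart.

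**Figure D1:**
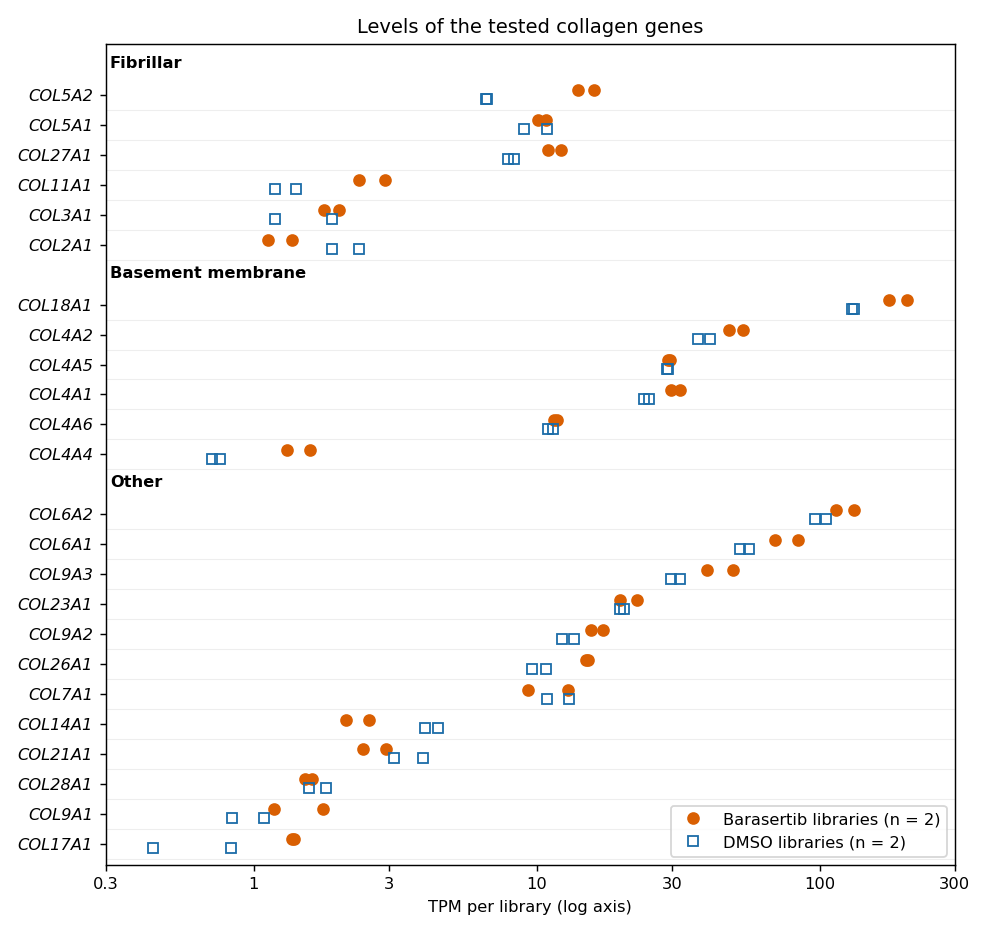
Level of each tested collagen gene in TPM (log axis), 1 point per library, grouped by class and ordered by mean level. Filled circles are the 2 barasertib libraries and open squares the 2 DMSO libraries; COL5A2 and COL18A1 have their circles clearly to the right of their squares, COL14A1 to the left, and COL4A5 has them on top of each other.

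The count depended on the scaling and on single libraries. After median-of-ratios scaling, and after quantile normalisation, the median change of all genes was -0.012 and -0.0077. Each left 5 collagens higher, beside 11.0% and 11.8% of all tested genes, with 1 lower under the first and 2 lower under the second, beside 13.6% and 11.4%. Under all 3 scalings, 4 collagens rose (COL5A2, COL18A1, COL26A1 and COL6A1), which is 16.7% of those tested where 10.0% of all tested genes did so. COL14A1 fell under all 3, as did 7.05% of all tested genes. Leaving out barasertib replicate 1 left 2 collagens higher, COL5A2 and COL18A1, beside 9.85% of all tested genes. Without barasertib replicate 2 it was 8 collagens, without DMSO replicate 1 it was 9 and without DMSO replicate 2 it was 5, beside 11.5%, 15.2% and 15.6% of all tested genes. By class, leaving out barasertib replicate 1 left 1 fibrillar, 1 basement membrane and 0 other collagens higher. Leaving out barasertib replicate 2 left 2 fibrillar, 3 basement membrane and 3 other collagens higher. The same 3 numbers were 2, 3 and 4 when DMSO replicate 1 was left out, and 1, 1 and 3 when DMSO replicate 2 was left out. COL14A1 passed as lower only in the fit without DMSO replicate 2, and none passed as lower in the remaining 3 of these fits, beside 4.99% of all tested genes there and 4.34%, 4.77% and 4.98% in the others. In 15 of the 24 tested collagens both barasertib libraries were above both DMSO libraries, which is 62.5%, and 49.1% of all tested genes had that order. Among these 15, COL4A4, COL17A1 and COL9A1 averaged 0.736, 0.636 and 0.962 TPM with DMSO. They reached the testing level only through their barasertib libraries, so their order is no separate evidence of a rise. The reverse order held for 3 collagens and 19.7% of all tested genes.

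**Figure D2:**
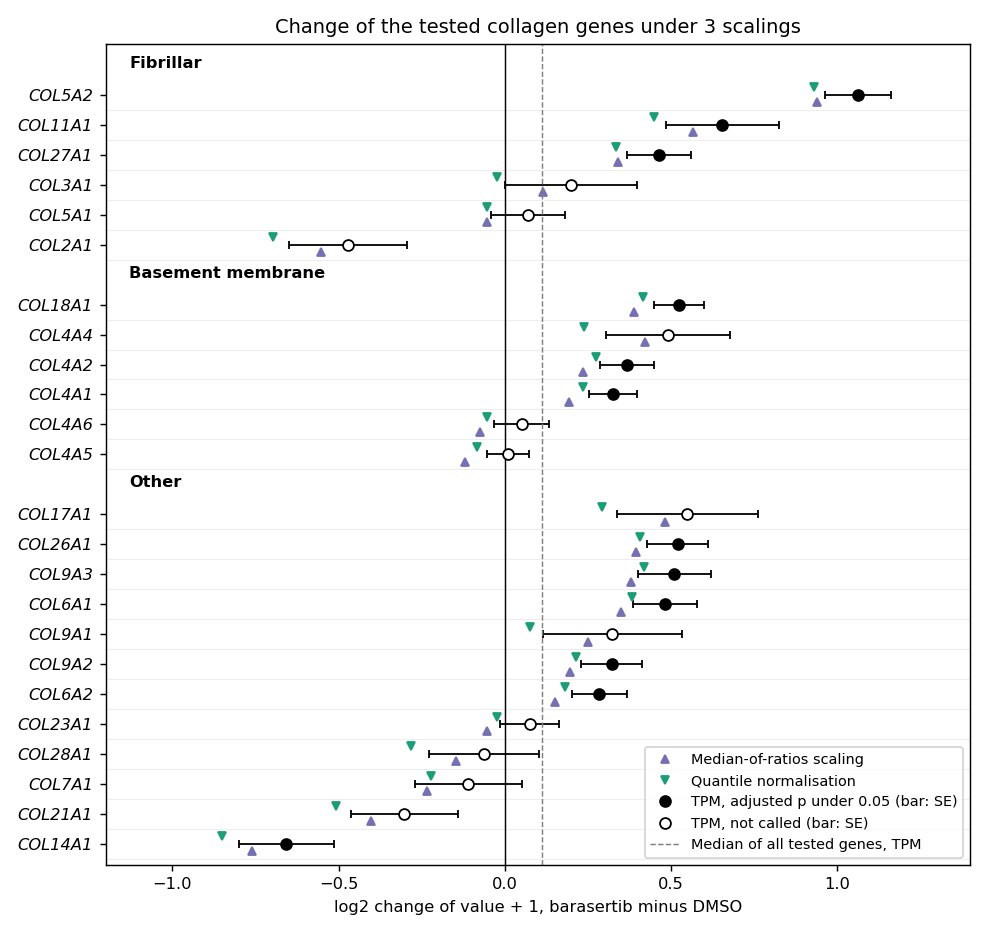
Change of each tested collagen, barasertib minus DMSO, on the log2(value + 1) scale. Circles are the TPM fit with bars of 1 standard error, filled where the adjusted p was under 0.05; triangles are the same genes after the other 2 scalings and lie to the left of the circle for nearly every gene; the dashed line is the median of all tested genes, 0.11.

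Among the fibrillar collagens, 6 of 11 were tested, 3 rose and none fell, with a median log2 change of 0.33. Over all tested genes 22.0% rose and 7.44% fell, with a median of 0.11. Under all 3 scalings 1 fibrillar collagen rose (16.7%), COL5A2, and none fell, beside 10.0% and 7.05% of all tested genes. COL5A2 encodes a chain of type V collagen, which sits inside larger fibrils and limits their width. It had 15.95 and 13.98 TPM in barasertib libraries, against 6.67 and 6.59 TPM in DMSO libraries. The groups were far apart, and the fit gave a rise of 1.06 on the log2 scale (SE 0.099, limma adjusted p = 0.00144), a fold change of 2.09 in TPM + 1. This gene lies at chr2:189896641-190044605 (hg19, minus strand), and no other collagen passed once a minimum of 2-fold was added to the threshold. Its partner chain COL5A1 had 10.8 and 10.1 TPM with barasertib and 9.05 and 10.8 TPM with DMSO. Those groups overlapped, and the log2 change was 0.069 (limma adjusted p = 0.668), with the sign turned after either other scaling.

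COL27A1, a fibrillar collagen of developing cartilage, had 12.2 and 11.0 TPM in barasertib libraries, against 8.29 and 7.92 TPM in DMSO libraries. It rose by 0.46 on the log2 scale (SE 0.096, limma adjusted p = 0.0167). Its call was lost after quantile normalisation (adjusted p = 0.0554), without barasertib replicate 1 (0.0804) and without DMSO replicate 2 (0.0580). COL11A1 encodes a chain of the thin fibrils of cartilage, and it had 2.90 and 2.36 TPM with barasertib, against 1.42 and 1.19 TPM with DMSO. It rose by 0.65 on the log2 scale (SE 0.17, limma adjusted p = 0.0342), but passed in no fit that left out a library, where the adjusted p ran between 0.0602 (without DMSO replicate 1) and 0.153 (without barasertib replicate 1), and not after median-of-ratios scaling (0.0596) or quantile normalisation (0.105).

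COL2A1, the main collagen of cartilage, was lower in both barasertib libraries, at 1.37 and 1.12 TPM, against 1.89 and 2.35 TPM in DMSO libraries. Its log2 change of -0.47 did not pass (limma adjusted p = 0.0940), although it did after quantile normalisation (-0.70, adjusted p = 0.0396). COL3A1, the collagen of vessels and other pliable tissue, had 2.001 and 1.775 TPM with barasertib and 1.19 and 1.89 TPM with DMSO. Its groups overlapped, with a log2 change of 0.20 (limma adjusted p = 0.484). Type I collagen, the bulk collagen of bone and skin, was nearly absent. COL1A1 was below the testing level at 1.41 and 0.990 TPM in barasertib libraries and 0.497 and 0.210 TPM in DMSO libraries, and COL1A2 was listed at 0 in every library except DMSO replicate 2, at 0.0385 TPM. Of the other fibrillar members, COL11A2 and COL24A1 stayed under 0.5 TPM and COL5A3 was listed at 0 in all 4 libraries.

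Among the basement membrane collagens, 6 of 8 were tested, 3 rose and none fell, with a median log2 change of 0.35. Over all tested genes 22.0% rose and 7.44% fell, with a median of 0.11. Under all 3 scalings 1 of this class rose (16.7%), COL18A1, and none fell, beside 10.0% and 7.05% of all tested genes. After median-of-ratios scaling the class median was 0.21, and that of all tested genes was -0.012. In TPM, COL18A1, COL4A1 and COL4A2 rose, whereas COL4A5 and COL4A6 had log2 changes of 0.010 and 0.050. COL18A1 encodes a heparan sulfate proteoglycan of basement membranes whose end fragment is endostatin. Type IV chains are encoded by gene pairs that lie head to head and share the stretch between their starts. Shown here are the starts of COL18A1, the most abundant member, and of 1 gene from each of 2 such pairs. In the TPM fit 1 pair rose and the other did not. The windows are RefSeq promoters on GRCh38.p14 (250 bases before to 50 after the start, all on the plus strand), and capitals mark matches to GGGCGG, known as the GC box, on either strand. They also mark matches to the CCAAT box, spelled by its name, on either strand, and overlapping matches were each counted.
COL18A1: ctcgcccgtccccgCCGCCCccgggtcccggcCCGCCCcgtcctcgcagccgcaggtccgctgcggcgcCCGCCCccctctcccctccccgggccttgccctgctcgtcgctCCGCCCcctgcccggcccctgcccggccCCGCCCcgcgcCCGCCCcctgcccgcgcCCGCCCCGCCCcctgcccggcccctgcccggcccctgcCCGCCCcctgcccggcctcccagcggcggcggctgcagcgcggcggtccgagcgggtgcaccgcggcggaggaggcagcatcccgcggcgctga
COL4A2: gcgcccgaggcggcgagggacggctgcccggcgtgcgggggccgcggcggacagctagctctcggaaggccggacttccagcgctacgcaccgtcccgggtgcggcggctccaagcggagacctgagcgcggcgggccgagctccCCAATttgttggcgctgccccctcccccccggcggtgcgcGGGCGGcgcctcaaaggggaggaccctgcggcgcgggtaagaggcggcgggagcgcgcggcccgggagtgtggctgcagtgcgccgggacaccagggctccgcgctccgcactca
COL4A5: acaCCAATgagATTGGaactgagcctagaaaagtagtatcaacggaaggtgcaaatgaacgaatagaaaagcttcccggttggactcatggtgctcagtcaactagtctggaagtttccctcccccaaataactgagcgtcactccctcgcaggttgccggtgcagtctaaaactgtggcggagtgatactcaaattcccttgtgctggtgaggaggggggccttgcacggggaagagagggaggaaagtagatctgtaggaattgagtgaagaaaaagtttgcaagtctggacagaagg

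The COL18A1 window, at chr21:45404915-45405214, held 9 GC boxes and no CCAAT. The COL4A2 window, at chr13:110307034-110307333, held 1 GC box and 1 CCAAT, and the first base of COL4A1, which runs the other way, lies at position 124 of the window. The COL4A5 window, at chrX:108439588-108439887, held 2 CCAAT and no GC box, and its first 121 bases are shared with the window of COL4A6. Of the 44 members, 32 had a window, and 56.2% of these held GGGCGG and 31.2% held CCAAT, where 45.0% and 34.6% of 35116 promoters did. The members are protein-coding and were counted at a single window per gene, while the 35116 were all windows available, with no such selection. The letters TATAAA, the TATA box, were in none of the 3 windows, in 15.6% of the members' windows and in 11.5% of all promoters. A match of letters is a description of the window and not a measured binding site. The 3 windows were picked by level and change, and a link between their letters and the change was not tested.

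COL18A1 was at 203.3 and 175.6 TPM in barasertib libraries, against 132.1 and 130.2 TPM in DMSO libraries. Both barasertib values were well above both DMSO values. The rise was 0.52 on the log2 scale (SE 0.074, limma adjusted p = 0.00518), and its adjusted p stayed under 0.05 in every alternative fit, between 0.00124 and 0.0311. The gene spans chr21:46825052-46933634 (hg19, plus strand), and the antisense RNAs COL18A1-AS1 and COL18A1-AS2 within it were listed at 0 in all 4 libraries.

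COL4A1 and COL4A2 encode the chains of the type IV trimer found in nearly all basement membranes. COL4A2 had 53.5 and 47.8 TPM with barasertib, against 40.8 and 37.25 TPM with DMSO, a rise of 0.37 on the log2 scale (SE 0.081, limma adjusted p = 0.0208). COL4A1 had 32.0 and 29.7 TPM with barasertib, against 24.9 and 23.9 TPM with DMSO, a rise of 0.32 (SE 0.072, limma adjusted p = 0.0208). Groups did not overlap for either gene, and the pair moved by like amounts. Neither passed after median-of-ratios scaling (adjusted p = 0.0919 for COL4A2 and 0.105 for COL4A1) or quantile normalisation (0.0642 and 0.0687), nor without barasertib replicate 1 (0.0926 and 0.0882) or DMSO replicate 2 (0.0699 and 0.0812).

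COL4A5 and COL4A6 encode chains of a type IV network of kidney and epithelia. COL4A5 had 29.04 and 29.50 TPM in barasertib libraries and 28.9 and 29.2 TPM in DMSO libraries, a log2 change of 0.010 (SE 0.063, limma adjusted p = 0.918). COL4A6 had 11.5 and 11.8 TPM with barasertib and 11.0 and 11.4 TPM with DMSO, a log2 change of 0.050 (SE 0.083, limma adjusted p = 0.677). The 4 libraries of each gene lay close together, and both changes turned negative after median-of-ratios scaling (-0.12 and -0.074) and quantile normalisation (-0.083 and -0.054). In hg19 the COL4A1 and COL4A2 spans are 109 bases apart on chromosome 13, and those of COL4A6 and COL4A5 are 346 bases apart on chromosome X. The difference between the 2 pairs was not tested.

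COL4A3 and COL4A4, the remaining head-to-head pair, belong to the mature network of the kidney glomerulus and were scarce. COL4A4 had 1.57 and 1.31 TPM with barasertib, against 0.710 and 0.763 TPM with DMSO, and its log2 change of 0.49 did not pass (SE 0.19, limma adjusted p = 0.0981). COL4A3 had 0.424 and 0.576 TPM with barasertib, while in DMSO libraries it was listed at 0 and at 0.0390 TPM. All values of this pair were higher with barasertib. COL4A4 did pass without the mean-variance trend (adjusted p = 0.0271). COL4A3 was below the testing level and passed as higher in the fit without the filter on low values (log2 change 0.56, adjusted p = 0.0259). COL15A1, a proteoglycan related to COL18A1, was listed at 0 in all 4 libraries.

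The other collagens numbered 25, of which 12 were tested, 5 rose (41.7%) and 1 fell, with a median log2 change of 0.30. Beside them, 22.0% of all tested genes rose and 7.44% fell, with a median of 0.11. Under all 3 scalings 2 of this class rose (16.7%), COL6A1 and COL26A1, and 1 fell, beside 10.0% and 7.05% of all tested genes. Type VI collagen forms beaded filaments around cells. COL6A2, its most abundant chain here, had 131.6 and 114.0 TPM in barasertib libraries, against 104.9 and 96.0 TPM in DMSO libraries, a rise of 0.28 on the log2 scale (SE 0.083, limma adjusted p = 0.0477). COL6A1 had 83.5 and 69.6 TPM with barasertib, against 56.3 and 52.4 TPM with DMSO, a rise of 0.48 (SE 0.0955, limma adjusted p = 0.0147). Both genes were separated by group, more widely for COL6A1. COL6A2 was lost in 7 alternatives, among them both other scalings (adjusted p = 0.249 and 0.188), and without barasertib replicate 1 (0.167) or DMSO replicate 2 (0.144). COL6A1 was lost without barasertib replicate 1 (0.0511) and without the mean-variance trend (0.0523).

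COL6A3, which supplies the large chain of the usual type VI trimer, was almost silent, at 0.204 and 0.0589 TPM in barasertib libraries and 0.110 and 0.0393 TPM in DMSO libraries. COL6A6 reached no more than 0.0760 TPM in any library, and COL6A5 was listed at 0 throughout. Type VI transcripts in these cells were thus those of COL6A1 and COL6A2, which lie next to each other on chromosome 21 with 93069 bases between their spans in hg19.

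Type IX collagen is a FACIT that coats cartilage fibrils. COL9A3 had 49.4 and 39.8 TPM with barasertib, against 31.9 and 29.8 TPM with DMSO, and rose by 0.51 on the log2 scale (SE 0.11, limma adjusted p = 0.0187). It no longer passed after median-of-ratios scaling (adjusted p = 0.0567), without barasertib replicate 1 (0.0571), without the filter on low values (0.0581) and without the mean-variance trend (0.0570). Its span shares 146 bases with TCFL5 on the opposite strand, which was at 28.3 and 28.9 TPM in barasertib libraries and 25.6 and 25.03 TPM in DMSO libraries, and no source used here says whether the counting used strand.

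COL9A2 had 17.1 and 15.6 TPM with barasertib, against 13.5 and 12.2 TPM with DMSO, and rose by 0.32 on the log2 scale (SE 0.092, limma adjusted p = 0.0445). This was the least stable call of the 12, lost in 10 of 15 alternatives, including each fit without a library (adjusted p = 0.166 and 0.0781 without barasertib replicate 1 and 2, 0.0608 and 0.175 without DMSO replicate 1 and 2). COL9A1, the chain that completes the trimer, was far scarcer at 1.76 and 1.18 TPM with barasertib and 0.836 and 1.09 TPM with DMSO. Its log2 change of 0.32 did not pass (limma adjusted p = 0.283).

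COL14A1, a FACIT that binds to type I fibrils, was the one collagen that fell. It had 2.11 and 2.55 TPM in barasertib libraries, against 4.47 and 4.03 TPM in DMSO libraries. The groups did not overlap, and the change was -0.66 on the log2 scale (SE 0.14, limma adjusted p = 0.0197). Its call was lost without barasertib replicate 1 (adjusted p = 0.0858), without barasertib replicate 2 (0.0503) and without DMSO replicate 1 (0.0796), with the direction kept. COL21A1, a related FACIT, was also lower, at 2.44 and 2.94 TPM with barasertib and 3.13 and 3.97 TPM with DMSO, but its log2 change of -0.30 did not pass (limma adjusted p = 0.201). Of the remaining FACITs and FACIT-like genes, COL20A1 had 0.504 and 0.224 TPM with barasertib and 0.490 and 0.739 TPM with DMSO, and COL12A1, COL16A1, COL19A1 and COL22A1 stayed under 0.3 TPM in every library.

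COL26A1, an EMI-domain collagen, had 15.1 and 14.98 TPM in barasertib libraries, against 10.8 and 9.60 TPM in DMSO libraries. Its barasertib libraries were nearly equal and both above DMSO, with a rise of 0.52 on the log2 scale (SE 0.091, limma adjusted p = 0.00985). The call was lost without barasertib replicate 1 (adjusted p = 0.0572) and without barasertib replicate 2 (0.0521). COL7A1, the collagen of the anchoring fibrils of skin, had 12.8 and 9.32 TPM with barasertib and 13.0 and 10.9 TPM with DMSO, so the groups overlapped (log2 change -0.11, limma adjusted p = 0.639). COL28A1 had 1.61 and 1.52 TPM with barasertib and 1.56 and 1.80 TPM with DMSO (log2 change -0.0635, limma adjusted p = 0.798). The network collagens COL8A1, COL8A2 and COL10A1, known from vessels, cornea and growing cartilage, were at or below 0.309 TPM in every library.

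None of the transmembrane collagens passed the test. COL23A1, shed from the cell surface, had 22.7 and 19.7 TPM with barasertib and 20.4 and 19.7 TPM with DMSO (log2 change 0.075, limma adjusted p = 0.555). COL17A1, the hemidesmosome collagen of skin, had 1.36 and 1.39 TPM with barasertib, against 0.439 and 0.833 TPM with DMSO. Its groups were apart, but the log2 change of 0.55 did not pass (SE 0.21, limma adjusted p = 0.1002). COL13A1 had 0.967 and 1.15 TPM in barasertib libraries and 0.661 and 0.0995 TPM in DMSO libraries, and COL25A1 had 0.650 and 0.778 TPM in barasertib libraries and 0.353 and 0.292 TPM in DMSO libraries. Both were below the testing level, and the deposited coverage of COL25A1 was at most 0.192.

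Summed over all 44 genes, collagen transcripts came to 723.1 and 633.5 TPM in barasertib libraries, against 531.2 and 508.0 TPM in DMSO libraries. The mean was 678.3 ± 63.4 TPM with barasertib and 519.6 ± 16.4 TPM with DMSO (SD, n = 2 each), a ratio of 1.31. Both barasertib sums were above both DMSO sums, and no p is given since an exact test of 2 against 2 libraries cannot reach 0.05. By class, the fibrillar sum was 44.6 ± 3.89 TPM with barasertib and 30.5 ± 1.34 TPM with DMSO, the basement membrane sum was 313.8 ± 24.7 TPM with barasertib and 235.6 ± 3.94 TPM with DMSO, and the sum of the other collagens was 319.9 ± 34.8 TPM with barasertib and 253.5 ± 13.8 TPM with DMSO. The ratios were 1.47, 1.33 and 1.26 for the 3 classes, and differences among classes were not tested. After median-of-ratios scaling the log2 ratios of the sums were 0.42, 0.28 and 0.20, against 0.55, 0.41 and 0.34 in TPM.

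The classes held similar shares of the collagen transcripts in both groups. Fibrillar collagens made up 6.58% of the summed TPM with barasertib and 5.87% with DMSO, basement membrane collagens 46.3% with barasertib and 45.4% with DMSO, and the other collagens 47.1% with barasertib and 48.8% with DMSO. COL18A1 alone held 28.1% and 27.7% in barasertib libraries, against 24.9% and 25.6% in DMSO libraries. The 5 most abundant genes, COL18A1, COL6A2, COL6A1, COL4A2 and COL9A3, held 72.1% and 70.5% with barasertib and 68.9% and 68.1% with DMSO. The summed collagen level thus rests mainly on these 5 genes, none of which is fibrillar. Without COL18A1, the basement membrane sum was 124.3 ± 5.16 TPM with barasertib and 104.5 ± 2.65 TPM with DMSO (SD, n = 2 each).

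**Figure D3:**
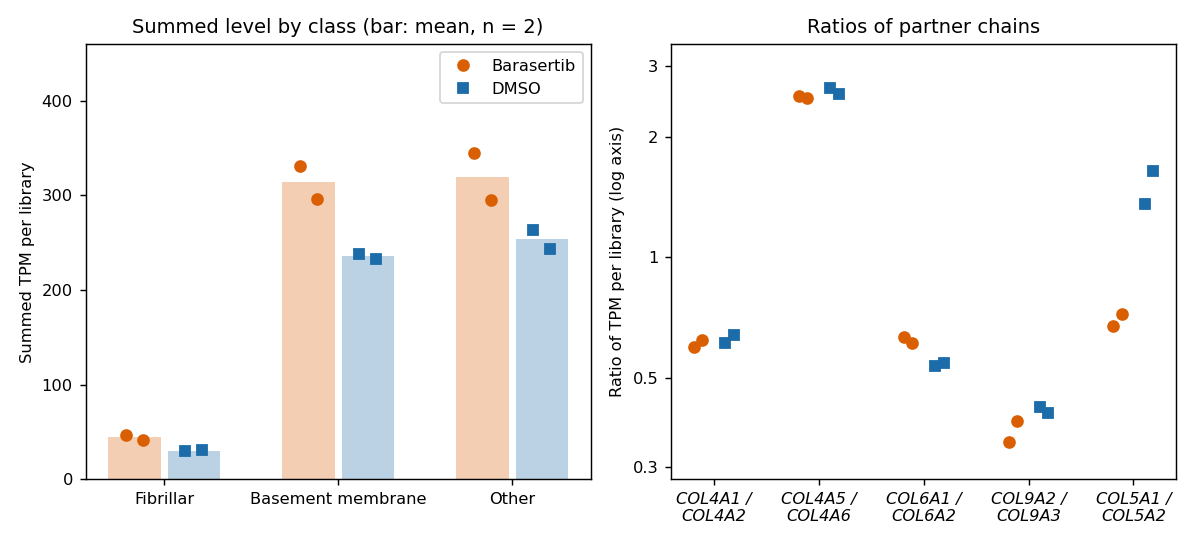
Left, summed TPM per library for the 3 classes of collagen (points) with the mean of 2 libraries (bars), barasertib left of DMSO. Right, ratio of TPM between chains of 1 trimer type in each library on a log axis; COL5A1 over COL5A2 is below 1 in both barasertib libraries and above 1 in both DMSO libraries.

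Ratios between partner chains need no scaling between libraries. COL4A1 over COL4A2 was 0.598 and 0.621 in barasertib libraries and 0.611 and 0.641 in DMSO libraries, so the ranges overlapped. COL4A5 over COL4A6 was 2.53 and 2.50 with barasertib and 2.64 and 2.55 with DMSO, which is close but without overlap. COL6A1 over COL6A2 was 0.635 and 0.611 with barasertib, against 0.537 and 0.545 with DMSO, and did not overlap. The remaining ratios were computed after the levels had been seen. COL4A3 over COL4A4, the scarce head-to-head pair, was 0.269 and 0.439 with barasertib, against 0 and 0.0512 with DMSO. COL5A1 over COL5A2 was 0.676 and 0.723 with barasertib, against 1.36 and 1.64 with DMSO, so the more abundant chain was COL5A2 with barasertib and COL5A1 with DMSO. COL9A2 over COL9A3 was 0.346 and 0.392 with barasertib and 0.424 and 0.410 with DMSO. None of these ratios was tested.

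Barasertib replicate 1 was above barasertib replicate 2 in 19 of the 24 tested collagens (79.2%), and in 47.5% of all tested genes. The collagens are rich in G and C, with a median GC content of the longest GENCODE transcript of 58.1%, where all tested genes had 48.4%. Tested genes split by GC content into 10 parts of equal size showed a trend between the barasertib replicates, with a median log2 difference, replicate 1 minus replicate 2, of -0.0935 in the lowest and 0.11 in the highest part. Between the DMSO replicates the same difference was -0.0318 in the lowest and 0.0312 in the highest part. The median change between groups was 0.11 in the lowest part and 0.17 in the highest. The highest part, from 61.7% GC, held 10 of the 24 tested collagens, and 7 of these 10 rose, with a median log2 change of 0.34. Of all 1360 tested genes in that part, 27.1% rose. When the trend with GC content and transcript length was removed in each library, an alternative chosen after seeing the data, 10 collagens rose and 1 fell, beside 24.3% and 8.80% of all tested genes, and COL9A2 no longer passed (limma adjusted p = 0.0503). The log2 change went from 0.28 to 0.17 for COL6A2 and from 0.52 to 0.41 for COL18A1. It went from 0.51 to 0.39 for COL9A3, from 0.48 to 0.39 for COL6A1 and from 0.32 to 0.23 for COL9A2. It also shrank for COL26A1, COL4A2 and COL27A1, and grew for COL5A2, COL11A1 and COL4A1.

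**Figure D4:**
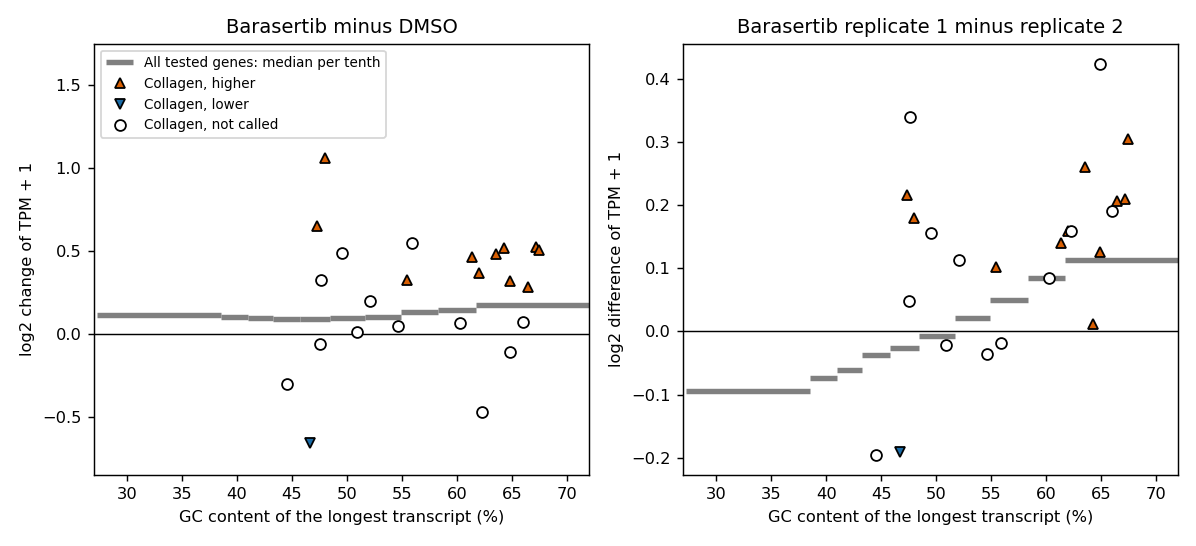
GC content of the longest transcript against the log2 change, barasertib minus DMSO (left), and against the difference of the barasertib replicates (right), for the tested collagens (symbols) and as the median of all tested genes in each of 10 equal parts by GC content (grey bars). On the right the grey bars climb with GC content and most collagens lie at or above them; on the left the bars lie between 0.088 and 0.17.

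Markers of other cell types that make collagen were checked. The fibroblast and mesenchyme list summed to 31.7 and 35.6 TPM in barasertib libraries, against 15.15 and 16.7 TPM in DMSO libraries. Of its 10 genes, 3 were tested and all 3 rose (PDGFRA, POSTN and TWIST1), beside 22.0% of all tested genes. The remaining 7 were under 1 TPM in every library, and FAP, TWIST2 and TCF21 were listed at 0 in every library. PDGFRA did not pass after either other scaling. The 3 calls were not all kept when either barasertib library or DMSO replicate 1 was left out. Of the 7 genes of the list under 1 TPM, DCN and LUM reached at most 0.0465 and 0.294 TPM. The cartilage and bone list summed to 12.4 to 15.2 TPM with barasertib and 9.13 to 10.3 TPM with DMSO, led by SOX9, with 2 genes tested and neither passing. Markers of extraembryonic endoderm summed to 1.90 to 2.47 TPM with barasertib and 1.12 to 1.42 TPM with DMSO, and endothelial markers to 1.52 to 1.93 TPM with barasertib and 0.278 to 0.477 TPM with DMSO. Neither list had a gene at the testing level, and TTR was listed at 0. The part of such cells in the collagen changes was not tested. Of the 10 embryonal carcinoma markers, 5 rose and 2 fell, beside 22.0% and 7.44% of all tested genes, and under all 3 scalings 2 rose (NANOG and GDF3) and 2 fell (SOX2 and CRIPTO). Fewer of these markers passed in each fit that left out a library.

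Genes that build collagen inside the cell rose about as often as all tested genes, of which 22.0% rose and 7.44% fell. Of 18 tested genes for folding and modification in the endoplasmic reticulum, 4 rose (22.2%; P3H3, SERPINH1, PLOD2 and PLOD3) and 4 fell (22.2%; P4HA2, P4HB, PPIB and CRTAP), with a median log2 change of 0.11. P4HA2, a catalytic subunit of prolyl 4-hydroxylase, averaged 68.1 ± 0.633 TPM with barasertib and 179.8 ± 1.46 TPM with DMSO (SD, n = 2 each; log2 change -1.39, limma adjusted p = 9.31e-05). P4HB, its partner subunit and a general disulfide isomerase, averaged 674.1 ± 13.5 TPM with barasertib and 1255.9 ± 6.998 TPM with DMSO (-0.90, 0.000131). The prolyl isomerase PPIB averaged 675.6 ± 4.92 TPM with barasertib and 1468.7 ± 28.2 TPM with DMSO (-1.12, 6.38e-05). In the other direction, PLOD2, which hydroxylates lysines for cross-links, averaged 55.8 ± 0.344 TPM with barasertib and 32.9 ± 1.97 TPM with DMSO (0.74, 0.00128). All 4 genes that fell did so under all 3 scalings, and of those that rose PLOD2 did. The shares of all tested genes that did so were 10.0% higher and 7.05% lower. When barasertib replicate 1 was left out the number that rose was 1, beside 9.85% of all tested genes, and without DMSO replicate 2 it was 2, beside 15.6%.

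Of 8 genes for procollagen export, all tested, 5 fell and none rose, with a median log2 change of -0.44. All 5 fell under all 3 scalings. These counts stand beside 22.0% of all tested genes that rose, 7.44% that fell, and 7.05% that fell under all 3 scalings. SEC24D, a coat subunit of secretory vesicles, averaged 28.2 ± 0.0670 TPM with barasertib and 51.8 ± 2.24 TPM with DMSO (SD, n = 2 each; log2 change -0.85, limma adjusted p = 0.000759). CREB3L2, a transcription factor for secretory genes, averaged 16.8 ± 0.555 TPM with barasertib and 25.1 ± 0.0277 TPM with DMSO (-0.56, 0.00356). MIA3, the procollagen export receptor also called TANGO1, averaged 30.7 ± 0.702 TPM with barasertib and 44.2 ± 0.909 TPM with DMSO (-0.51, 0.00305). MIA2, its partner, averaged 11.3 ± 1.86 TPM with barasertib and 17.1 ± 1.454 TPM with DMSO (-0.56, 0.0215), and no longer passed without barasertib replicate 1 (adjusted p = 0.0789) or DMSO replicate 2 (0.0633). SEC23A, another coat subunit, was the fifth gene that fell.

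Outside the cell, 5 of 10 tested genes for propeptide cleavage and cross-linking rose (PCOLCE, LOX, LOXL2, LOXL3 and PXDN) and LOXL1 fell, beside 22.0% of all tested genes that rose and 7.44% that fell. The median log2 change of the list was 0.38. LOXL3, a lysyl oxidase, averaged 2.40 ± 0.0723 TPM with barasertib and 0.784 ± 0.160 TPM with DMSO (SD, n = 2 each; log2 change 0.93, limma adjusted p = 0.0123). With 0.897 and 0.671 TPM in DMSO libraries, LOXL3 reached the testing level only through its barasertib libraries. LOX averaged 2.87 ± 0.322 TPM with barasertib and 1.37 ± 0.185 TPM with DMSO (0.70, 0.0241). PCOLCE, which enhances cleavage of the C-terminal propeptide, averaged 4.01 ± 0.147 TPM with barasertib and 2.06 ± 0.0218 TPM with DMSO (0.71, 0.0122). LOXL1, another lysyl oxidase, averaged 4.96 ± 1.15 TPM with barasertib and 9.39 ± 0.305 TPM with DMSO (-0.81, 0.0116). PXDN, PCOLCE and LOXL3 rose under all 3 scalings, as did 10.0% of all tested genes. LOXL1 fell under all 3, as did 7.05% of all tested genes. The number that rose was 1 without barasertib replicate 1, 1 without barasertib replicate 2 and 3 without DMSO replicate 2, where 9.85%, 11.5% and 15.6% of all tested genes rose. LOX lost its call in all 3 of those fits (adjusted p = 0.0748, 0.119 and 0.0763), and PCOLCE (0.0707 and 0.0575) and LOXL3 (0.0683 and 0.0736) without either barasertib library.

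Of 5 tested collagen receptors, DDR1 rose and MRC2 fell, with a median log2 change of 0.18. A count of 1 higher of 5 (20.0%) is near the 22.0% of all tested genes that rose, and 7.44% of all tested genes fell. DDR1, a receptor tyrosine kinase for collagen, averaged 20.3 ± 1.66 TPM with barasertib and 14.96 ± 0.210 TPM with DMSO (SD, n = 2 each; log2 change 0.42, limma adjusted p = 0.0163). MRC2, which takes up collagen fragments, averaged 41.85 ± 5.26 TPM with barasertib and 57.0 ± 4.54 TPM with DMSO (-0.44, 0.0236). It fell under all 3 scalings, as did 7.05% of all tested genes. Without DMSO replicate 1, 2 receptors rose, beside 15.2% of all tested genes. DDR1 no longer passed without barasertib replicate 1 (adjusted p = 0.0725) or DMSO replicate 2 (0.0504), nor after median-of-ratios scaling (0.0580), and MRC2 not without barasertib replicate 2 (0.0878) or DMSO replicate 2 (0.0676).

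Of 8 tested genes for collagen degradation and its inhibitors, 7 rose (MMP2, MMP14, CTSK, PEPD, TIMP1, TIMP2 and TIMP4) and none fell, where 22.0% of all tested genes rose and 7.44% fell. The median log2 change was 0.50, and the genes that rose included proteases and their inhibitors. MMP14, a collagenase of the cell surface, averaged 33.6 ± 0.471 TPM with barasertib and 21.5 ± 2.08 TPM with DMSO (SD, n = 2 each; log2 change 0.63, limma adjusted p = 0.00429). MMP2, which MMP14 activates, averaged 3.39 ± 0.352 TPM with barasertib and 1.70 ± 0.203 TPM with DMSO (0.70, 0.0205). The inhibitor TIMP2 averaged 21.4 ± 1.13 TPM with barasertib and 13.3 ± 0.926 TPM with DMSO (0.64, 0.00432), and TIMP4 averaged 43.6 ± 6.16 TPM with barasertib and 25.7 ± 4.84 TPM with DMSO (0.75, 0.0144). Under all 3 scalings 4 rose (MMP14, PEPD, TIMP2 and TIMP4), beside 10.0% of all tested genes. When barasertib replicate 1 or 2 was left out 4 rose, beside 9.85% and 11.5%. MMP2 lost its call in the fits that left out barasertib replicate 1 (adjusted p = 0.0670), barasertib replicate 2 (0.104) or DMSO replicate 2 (0.0652). TIMP4 lost its call when barasertib replicate 2 was left out (adjusted p = 0.0838).

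Of the 10 basement membrane partners, all tested, 4 rose (NID1, AGRN, LAMA1 and SPARC) and 2 fell (LAMB1 and LAMB2), with a median log2 change of 0.053. Over all tested genes the shares were 22.0% higher and 7.44% lower. NID1, which links laminin to type IV collagen, averaged 20.7 ± 0.126 TPM with barasertib and 11.5 ± 0.207 TPM with DMSO (SD, n = 2 each; log2 change 0.80, limma adjusted p = 0.00146). The proteoglycan AGRN averaged 46.7 ± 4.97 TPM with barasertib and 30.6 ± 0.418 TPM with DMSO (0.59, 0.00543). LAMA1, the laminin alpha chain of the early embryo, averaged 14.1 ± 0.394 TPM with barasertib and 9.35 ± 0.398 TPM with DMSO (0.54, 0.00704). LAMB2, a laminin beta chain, averaged 19.4 ± 1.21 TPM with barasertib and 24.7 ± 1.43 TPM with DMSO (-0.33, 0.0293). NID1, AGRN and LAMA1 rose under all 3 scalings, beside 10.0% of all tested genes. LAMB1 and LAMB2 fell under all 3, beside 7.05% of all tested genes. Without DMSO replicate 1 the number that fell was 1, and in each of the other 3 fits without a library it was 0. The adjusted p of LAMB2 was 0.0596 without barasertib replicate 1, 0.113 without barasertib replicate 2 and 0.124 without DMSO replicate 2.

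TGF-beta is a growth factor known to raise transcription of many matrix genes. Of 9 tested genes for its ligands, receptors and matrix targets, 4 rose (CCN2, SMAD7, TGFB1 and FN1) and none fell, with a median log2 change of 0.28, beside 22.0% and 7.44% of all tested genes. CCN2, a matricellular target, averaged 8.13 ± 1.25 TPM with barasertib and 2.32 ± 0.376 TPM with DMSO (SD, n = 2 each; log2 change 1.46, limma adjusted p = 0.00201). SMAD7, the inhibitory mediator that the pathway induces, averaged 35.0 ± 1.07 TPM with barasertib and 16.8 ± 2.03 TPM with DMSO (1.02, 0.00146). The ligand TGFB1 averaged 20.8 ± 3.08 TPM with barasertib and 11.1 ± 0.486 TPM with DMSO (0.85, 0.00429). These 3 rose under all 3 scalings, as did 10.0% of all tested genes. FN1, which encodes the matrix protein fibronectin, averaged 92.8 ± 0.624 TPM with barasertib and 73.9 ± 4.81 TPM with DMSO (0.33, 0.0129). FN1 no longer passed after median-of-ratios scaling (adjusted p = 0.0729) or when either barasertib library was left out (0.0618 for replicate 1 and 0.0649 for replicate 2).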

How the data were processed

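RNA-seq was analysed in 4 libraries, 2 per group. Per the labels' protocols, a stranded kit that selects polyadenylated RNA was used on column-purified total RNA. HISAT2, StringTie and hg19 are named in the submitters' processing notes, and no source used here gives versions, options or use of strand. Per the file headers, each deposited table gives per gene row the coverage (mean read depth, a signal), FPKM (fragments scaled by length and library size) and TPM. The files hold no counts, so the read number behind a value is unknown and no counting interval is given. Between 5150 and 6256 rows per library carry a dot in place of the usual dash as gene name and are all at 0, so members at 0 are described as listed at 0.

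Rows were summed per gene ID, and 27559 IDs matched a RefSeq symbol (GRCh38.p14, used for names and for promoter windows). limma 3.58.1 (R 4.3.3) was fitted with a mean-variance trend to log2(TPM + 1), pseudocount 1, for genes averaging 1 TPM or more; the fold changes are on that scale and understate changes of low genes. Tests are two-sided, with Benjamini-Hochberg adjustment over 13938 genes and a threshold of 0.05. The fit was also run on simulated data that held no shift of the median and no GC trend. That run cannot speak to the dependence on scaling or on single libraries. Called under all 3 scalings means in TPM, after median-of-ratios scaling and after quantile normalisation. Members and lists were chosen with earlier results of these data known. Every collagen gene at the testing level was named, those below it where a library reached 0.5 TPM, and up to 4 called genes per pathway list by size of change; other names were added after their values were seen. A pathway gene is not reported here and stands in no list count. GC content came from GENCODE transcripts and covered 97.6% of tested genes.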

Additional observations from a re-analysis of the deposited data

How the results depend on the processing

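Of the alternatives, COL18A1 and COL5A2 kept direction and call in all 15 fits, though COL18A1 does not reach the 2-fold minimum. The number of collagens that rose was 11 and became 7 without the filter on low values (6 of the 11 and COL4A3), where 11.9% of all tested genes rose, 7 without the mean-variance trend (6 of the 11 and COL4A4), where 15.9% rose, 5 after median-of-ratios scaling, 5 after quantile normalisation, 1 with a 2-fold minimum and 2 to 9 without a library. The number that fell was 1 and became 0 with a mean of at least 5 TPM, where COL14A1 is not tested, 0 with a 2-fold minimum, 2 after quantile normalisation and 0 to 1 without a library. Over all tested genes, 3071 rose and 1037 fell; this became 1534 and 1891 after median-of-ratios scaling, 1649 and 1590 after quantile normalisation, 292 and 87 with a 2-fold minimum, 674 fell without the mean-variance trend, and without a library 1365 to 2181 rose and 601 to 699 fell. Of the pathway genes, 25 rose and 13 fell; this became 16 higher after median-of-ratios scaling, 2 and 2 with a 2-fold minimum, and 13 to 24 and 9 to 12 without a library. In the main fit 22.0% of all tested genes rose and 7.44% fell. The pathway counts pool lists that differed in direction, with 0 higher and 5 lower for procollagen export. For degradation and its inhibitors they were 7 higher and 0 lower. The log2 ratios of the class sums moved to 0.42 (fibrillar), 0.28 (basement membrane) and 0.20 (other) after median-of-ratios scaling. With 1 library left in a group, that library is assumed to vary like the other group.

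Reversals touched uncalled genes only. After median-of-ratios scaling the log2 change was -0.0542 for COL23A1, -0.12 for COL4A5, -0.0741 for COL4A6 and -0.0542 for COL5A1, and after quantile normalisation it was -0.0231, -0.0828, -0.0543 and -0.0528 for the same genes and -0.0222 for COL3A1. It was -0.0118 for COL4A5 in FPKM and -0.0303 for COL23A1 with the GC and length trend removed. Without 1 library it ran over -0.0206 to 0.1703 for COL23A1, -0.1285 to 0.0015 for COL28A1, -0.0040 to 0.4016 for COL3A1, -0.0008 to 0.0209 for COL4A5, -0.0496 to 0.1874 for COL5A1 and -0.3217 to 0.1025 for COL7A1. The cause was not tested.

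Replicate numbers are shared by the groups, but same-numbered libraries deviated together at a correlation of 0.023, so the numbers were not taken as pairs. A fit with the replicate block left 11 collagens higher and 1 lower, 3218 and 1080 of all tested genes, and 26 and 13 pathway genes.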
